A study of Mus musculus with 6 samples.

Results

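Prom1, Nes and Vim were taken by gene name from a table of 32285 genes measured by bulk RNA sequencing, and each name matched 1 gene, giving 3 genes in all. Prom1 encodes CD133 (prominin-1), the surface protein on which the cells were sorted. Nes and Vim encode nestin and vimentin, the intermediate filament proteins that fill the long processes of neural progenitors. Each sample came from the neocortex of E10.5 mouse embryos of wild-type genotype, and its cells are labelled radial glial progenitors, the stem cells along the ventricle that give rise to cortical neurons. The tissue was dissociated and cultured. The DMSO group received the solvent alone, and the GSK group received the lactate dehydrogenase inhibitor GSK2837808A in the same solvent. The concentration is labelled 100 mM, which is implausibly high for a culture medium, so the true dose is uncertain. After about 24 h, roughly 1000 cells per sample that carried CD133 and excluded the dead-cell dye DAPI were sorted for Smart-seq2 libraries, 3 per group. No label ties a library to its own culture, litter or animal, so the replicates may be technical and the p-values speak only of the spread seen among these 6 libraries.

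CD133 is a membrane protein that spans the membrane several times, binds cholesterol and sits in protrusions, on the apical face of neural progenitors at the ventricle and at the primary cilium. Nestin does not build filaments well alone and is incorporated into filaments together with vimentin. Nestin and vimentin mark progenitors in the embryonic cortex. Vimentin is also abundant in mesenchyme, blood vessel cells and macrophages, and neurons replace both with neurofilament proteins as they mature. The sort selected on CD133 protein, and the amount of protein per cell is not part of the values used here.

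Libraries held 7187089 to 10224348 reads, recovered from the deposited normalised values. Of 8 radial glial markers (Pax6, Sox2, Hes1, Hes5, Fabp7, Slc1a3, Emx2 and Lhx2) all were detected in every library. In GSK libraries 6 of them were called lower, against 19.1% of all tested genes (limma, described below). The 8 markers summed to 8719 to 9214 normalised reads in DMSO and 2579 to 3596 in GSK libraries. RNA of other cell types was present too. The 10 mesenchyme markers, all detected in every library and led by the collagen gene Col3a1, summed to 28137 to 35549 normalised reads in DMSO and 18501 to 27994 in GSK libraries. The 10 neuron markers summed to 7937 to 15620 and 23968 to 29495, and the 10 red blood cell markers to 2461 to 21016 and 186922 to 277396. The 8 intermediate progenitor markers, such as Eomes, summed to 1395 to 1834 and 2518 to 3590. Of them 7 were called higher, against 17.0% of all tested genes (median log2 fold change 1.06 against 0.01). Among the 7 was Neurod4, which reached the filter only through the GSK libraries, so this count and median are not read further. DMSO replicate 3 had the lowest neuron and red cell sums. The 10 microglia and macrophage markers summed to 73.0 to 387 and 603 to 1365, and the 10 endothelial markers to 134 to 174 and 115 to 150.2. Fewer cells of a type and less RNA per cell cannot be told apart in bulk samples, and the part of these other cells in the results below was not tested.

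Prom1 lies on chromosome 5 (43993620 to 44102032, minus strand, GRCm38), Nes on chromosome 3 (87971078 to 87980451, plus strand) and Vim on chromosome 2 (13573927 to 13582826, plus strand). Their longest annotated transcripts are 4089, 6126 and 2926 bases long. No annotated gene overlaps Nes or Vim. The antisense gene Gm16401 shares 424 exon bases with the first exons of Prom1, and because Smart-seq2 libraries keep no strand, reads there cannot be assigned to either gene. Gm16401 held 106, 104 and 99.4 normalised reads in DMSO replicates 1 to 3 and 68.3, 69.8 and 42.4 in GSK replicates 1 to 3. It fell with Prom1 (log2 fold change -0.80, standard error 0.21, limma adjusted p = 0.00614), and its level was a small part of that of Prom1 in every library.

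To place the genes at their starts, the 30 bases from position -40 to -11 before a RefSeq start (GRCm38.p6) are shown, with 3 core promoter motifs in capitals where they occur on either strand. The letters searched for the TATA box were TATAAA, for the CCAAT box the letters of its name, and for the GC box the run GGGCGG, and no matches overlap each other.
Prom1 (chr5:44101747-44101776, minus strand): ctcacCCAATcactcttgtggtgccctggg
Nes (chr3:87971053-87971082, plus strand): aataccctcgcttcagctcgctgctggaat
Vim (chr2:13574271-13574300, plus strand): aacagtgtTATAAAagcagcgcccttggcg
The Vim window holds a TATAAA from position -32, and the other windows hold none. Prom1 holds a CCAAT from position -35. Most of the Prom1 and Vim stretches further upstream lie in first exons of other annotated transcripts, and a second RefSeq start of Prom1 falls on the edge of an exon of longer transcripts, so none of these is printed. Upstream of Nes, positions -250 to -16 are clear of annotated exons.
Nes (chr3:87970843-87971077, plus strand): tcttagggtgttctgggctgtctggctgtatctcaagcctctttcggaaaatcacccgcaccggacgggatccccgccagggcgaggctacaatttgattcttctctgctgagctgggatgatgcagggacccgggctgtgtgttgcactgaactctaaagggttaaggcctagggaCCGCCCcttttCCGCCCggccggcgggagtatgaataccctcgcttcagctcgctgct
In this stretch the GC box occurs 2 times, on the opposite strand. Over the full 250 bases before the start, Prom1 has 1 CCAAT and 1 GC box, Nes has 2 GC boxes, and Vim has 1 TATAAA and 2 CCAAT. Of 32817 RefSeq mouse promoters of this length, 12.4% hold a TATAAA, 33.8% a CCAAT and 32.7% a GC box. A match of letters is a description and not a bound site.

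The comparison asks how the levels of the sort marker and of the progenitor filament genes differ between the inhibitor and the solvent alone. Lactate itself is not among the values used here. Prom1 fell to 49.9% and Nes to 42.3% of the DMSO mean, while Vim did not pass the test. Thus 2 of the 3 genes were called, both lower, against 36.1% of the 15073 genes tested called in either direction and 19.1% called lower (limma on log2(value + 1), Benjamini-Hochberg adjusted p below 0.05). The same 2 genes had no overlap between the groups, which 47.2% of tested genes showed in either direction and 24.4% in this one. Shares of reads that can reflect RNA quality, among other things, moved with the groups without overlap. Mitochondrial genes took 0.519% to 0.697% of reads in DMSO and 0.892% to 1.08% in GSK libraries, and genes that overlap ribosomal RNA took 20.2% to 21.6% and 23.2% to 26.1%. Whether these shares reflect RNA quality here, and their part in the results, was not tested. With 3 genes chosen by name, these counts of called genes say nothing of progenitor genes as a class.

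Prom1 had 1223, 1226 and 1099 normalised reads in DMSO replicates 1 to 3 and 693, 577 and 502 in GSK replicates 1 to 3. Every GSK library lay below every DMSO library, with GSK replicate 1 the nearest to them. The means were 1183 ± 72.2 and 591 ± 96.3 (SD, n = 3 per group). The log2 fold change was -1.01 ± 0.14 (standard error), with a 95% interval of -1.29 to -0.73 (limma adjusted p = 7.61e-06). A two-sided exact permutation test of the 6 libraries gave p = 0.1, the smallest that 3 against 3 allows. Of all tested genes, 7.09% had a lower fold change.

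Nes had 1592, 1546 and 1352 normalised reads in DMSO replicates 1 to 3 and 584, 676 and 639 in GSK replicates 1 to 3. The groups were again apart, and GSK replicate 1 was the lowest library for Nes although it was the highest GSK library for Prom1. The means were 1497 ± 127 and 633 ± 46.5. The log2 fold change was -1.24 ± 0.13 (standard error), with a 95% interval of -1.50 to -0.97 (limma adjusted p = 2.22e-07, exact permutation p = 0.1). Of all tested genes, 4.80% had a lower fold change.

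Vim had 10011, 10255 and 10115 normalised reads in DMSO replicates 1 to 3 and 8061, 10278 and 10118 in GSK replicates 1 to 3. The groups overlapped: GSK replicates 2 and 3 stood within or just above the range of the DMSO libraries, and GSK replicate 1 stood below all others. The means were 10127 ± 122 and 9486 ± 1236. The log2 fold change was -0.10 ± 0.15 (standard error; limma adjusted p = 0.627, exact permutation p = 0.9). Its 95% interval ran from -0.42 to 0.21, or from 75.0% to 116% of the DMSO level, which does not include a fall to the 49.9% measured for Prom1. Without GSK replicate 1 the log2 fold change of Vim was 0.01 (limma adjusted p = 0.943). As a plain share of each library's reads, Vim took 0.120%, 0.119% and 0.119% in the DMSO libraries and 0.0986%, 0.109% and 0.110% in the GSK libraries, so on that scale the groups did not overlap. Scaled to equal library totals, its log2 fold change was -0.17 and did not pass either (limma adjusted p = 0.205).

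**Figure D1:**
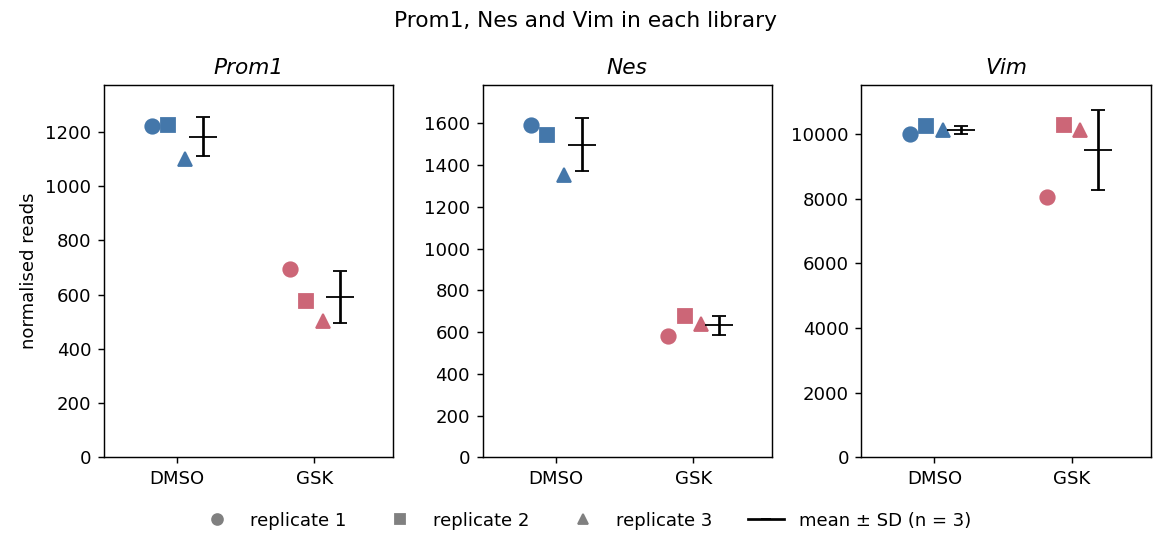
Normalised reads of Prom1, Nes and Vim (vertical axes from 0) in the 3 DMSO and 3 GSK libraries, each symbol 1 library and the bar the mean ± SD. Prom1 and Nes are separated between the groups, while Vim lies between 10011 and 10278 in 5 libraries and at 8061 in GSK replicate 1.

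The reads behind these values were many enough for counting error to be small. Prom1 rested on 473 to 1427 reads per library, Nes on 513 to 1799 and Vim on 7084 to 11935. The counting error of a single value was thus 2.65% to 4.60% for Prom1, 2.36% to 4.42% for Nes and 0.915% to 1.19% for Vim. Between replicates, Prom1 varied by 6.10% (coefficient of variation) in DMSO and 16.3% in GSK libraries, and Nes by 8.51% and 7.35%. Vim varied by only 1.21% among the DMSO libraries, close to its counting error, and by 13.0% among the GSK libraries. Reads were not marked as single molecules, so these errors cover counting alone.

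Levels of different genes were compared per kilobase of the longest transcript. On that scale Vim stood at 3461 ± 41.9 normalised reads per kb in DMSO, Prom1 at 289 ± 17.7 and Nes at 244 ± 20.8. In GSK libraries the values were 3242 ± 423 for Vim, 144 ± 23.5 for Prom1 and 103 ± 7.60 for Nes. Vim was rank 103 of 15065 genes by this level in both groups. Prom1 went from rank 1759 to 3493, and Nes from 2132 to 4674. The order Vim, Prom1, Nes held without overlap of their ranges in either group. The order of the lower 2 genes depends on the length used: per kb of all annotated exons together, Nes averaged 233 and Prom1 165 in DMSO, and 98.6 and 82.3 in GSK libraries.

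A ratio of 2 genes within a library does not depend on how libraries are scaled, so ratios were formed for the 3 pairs. The Vim to Nes ratio of reads was 6.29, 6.63 and 7.48 in DMSO replicates 1 to 3 and 13.8, 15.2 and 15.8 in GSK replicates 1 to 3. All GSK ratios lay above all DMSO ratios, with means of 6.80 ± 0.614 and 14.9 ± 1.04. The difference of mean log2 ratios was 1.14, or 2.20-fold, against replicate SDs of 0.13 and 0.10 on the log2 scale (two-sided exact permutation p = 0.1, 0.15 adjusted over the 3 ratios, with 0.1 the smallest possible).

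The Vim to Prom1 ratio of reads was 8.19, 8.36 and 9.20 in the DMSO libraries and 11.6, 17.8 and 20.2 in the GSK libraries. The groups were apart here too, with a wider spread in GSK libraries, where replicate 1 had the lowest Vim and the highest Prom1 of its group. The difference of mean log2 ratios was 0.91, or 1.88-fold (exact permutation p = 0.1, adjusted 0.15).

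The Nes to Prom1 ratio of reads was 1.30, 1.26 and 1.23 in the DMSO libraries and 0.842, 1.17 and 1.27 in the GSK libraries. These groups overlapped, since GSK replicate 3 stood inside the DMSO range. The mean log2 ratios differed by -0.23 (exact permutation p = 0.3, adjusted 0.3), with an SD of 0.04 in DMSO and 0.32 in GSK libraries. The difference rested on GSK replicate 1: without it the log2 difference was -0.05 (exact permutation p = 0.6). A difference in the size of the falls of Prom1 and Nes was therefore not detectable with these samples.

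**Figure D2:**
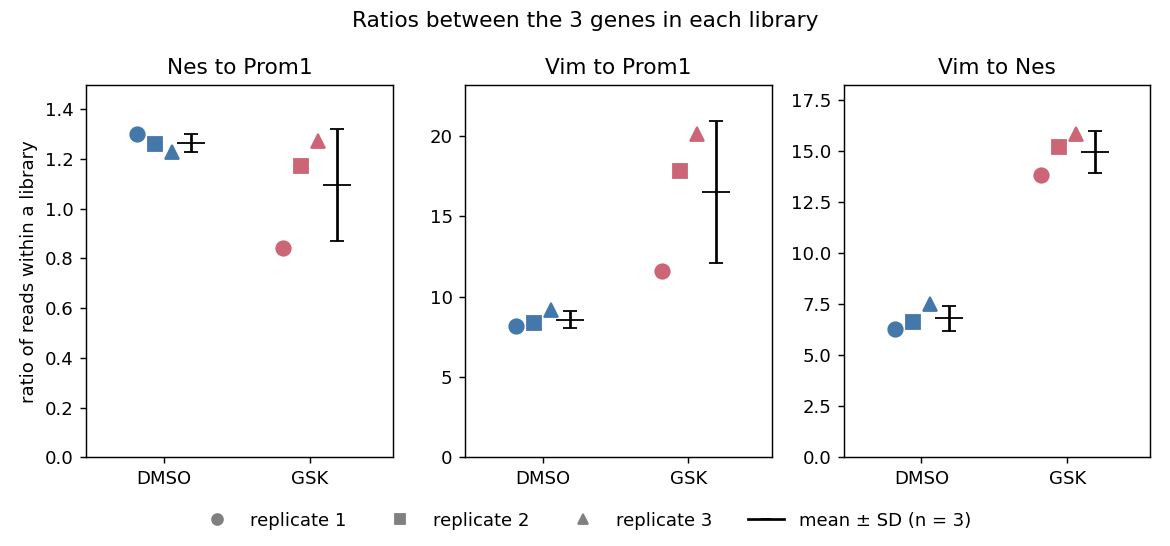
Ratio of reads of 2 genes within each library (vertical axes from 0), each symbol 1 library and the bar the mean ± SD. Vim to Prom1 and Vim to Nes are higher in all 3 GSK libraries, while Nes to Prom1 overlaps between the groups and is lowest, at 0.842, in GSK replicate 1.

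The wider intermediate filament family was described from a list of 20 genes, of which 12 had a mean of at least 10 normalised reads and were tested. Of these 5 rose and 5 fell, against 17.0% and 19.1% of all tested genes, and the list median was 0.25 on the log2 scale against 0.01 over all tested genes. A gene that passed the filter only through the group in which it is high had to differ, so the share called among those 12 is not read further. The genes below the filter were Des, Gfap, Prph, Nefh, Krt7, Krt19, Bfsp1 and Bfsp2, all below 12 normalised reads in every library. Gfap, the filament gene of mature astrocytes, had 0.859 to 3.19 normalised reads in DMSO and 3.41 to 8.49 in GSK libraries.

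Of the genes for the filaments of neurons, Nefl, Nefm and Ina rose. Nefh, the heavy neurofilament subunit, was too low to be tested, with 4.65 to 6.01 normalised reads in DMSO and 2.28 to 11.7 in GSK libraries. Nefl, the light neurofilament subunit, had 143, 190 and 82.7 normalised reads in DMSO replicates 1 to 3 and 385, 440 and 469 in GSK replicates 1 to 3. Its groups did not overlap, and DMSO replicate 3, the library with the lowest neuron markers, was lowest. The log2 fold change of Nefl was 1.70 ± 0.24 (standard error; limma adjusted p = 0.00015). Nefm, the medium subunit, rose with a log2 fold change of 0.96 (limma adjusted p = 0.000323). Ina, which encodes alpha-internexin, an early neuronal filament protein, had a log2 fold change of 0.93 (limma adjusted p = 0.00871), but was not called without GSK replicate 1 (0.0934) or GSK replicate 3 (0.0563). Neuron markers rose beside them in 6 of 10 cases, against 17.0% of all tested genes (median 1.25 against 0.01).

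Partners of vimentin and nestin fell in part. Synm and Sync encode synemin and syncoilin, filament proteins that join other filaments, and both were low. Synm had 68.8 to 81.8 normalised reads in DMSO and 28.7 to 61.5 in GSK libraries (log2 fold change -0.84, limma adjusted p = 0.0142). Sync had 32.5 to 49.0 and 12.7 to 24.8 (log2 fold change -1.05, limma adjusted p = 0.0132). Both calls were lost without DMSO replicate 1 (0.0597 for Synm, 0.0562 for Sync) or GSK replicate 3 (0.0801 and 0.0680), and that of Sync also without DMSO replicate 2 (0.0695).

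Nuclear lamins, the filament proteins of the nuclear envelope, went in both directions. Lmnb1 had 2504, 3639 and 4456 normalised reads in the DMSO libraries and 1414, 1046 and 1007 in the GSK libraries, a log2 fold change of -1.59 (standard error 0.19, limma adjusted p = 1.26e-05). The GSK libraries all lay below the DMSO libraries, which themselves spread widely. Lmnb2 fell with a log2 fold change of -1.40 (limma adjusted p = 3.17e-07). Lmna, the A-type lamin gene of differentiated cells, rose by 0.61 on the log2 scale (limma adjusted p = 0.00312). Krt18, a keratin gene of simple epithelia, was called higher (log2 fold change 1.05, limma adjusted p = 0.0436), but the call rested on GSK replicate 1, which held 56.9 normalised reads against 11.2 to 21.1 in the other 5 libraries. Without that library its log2 fold change was 0.57 (limma adjusted p = 0.286), and leaving out any single DMSO library also ended the call (0.0581 to 0.119).

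**Figure D3:**
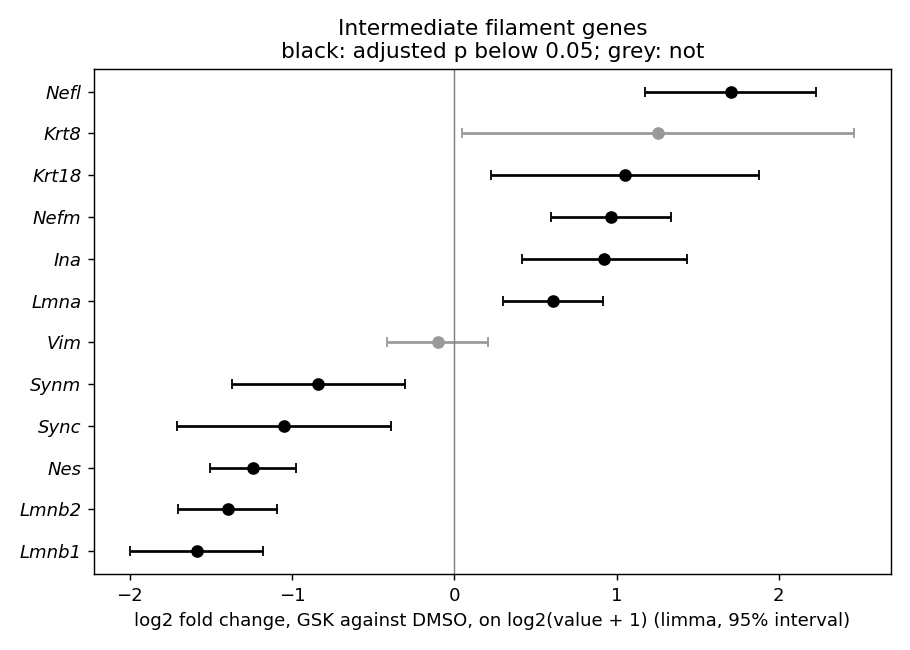
Log2 fold change of GSK against DMSO on the log2(value + 1) scale, with its 95% limma interval, for the 12 tested intermediate filament genes. Nes lies among the 5 genes called lower, Vim has an interval that crosses 0, and the neurofilament genes Nefl, Nefm and Ina are among the 5 called higher.

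The share of each gene in the 17 cytoplasmic filament genes of the list was formed per kb of longest transcript. Vim made up 87.1% ± 2.01 of the sum in DMSO and 83.8% ± 1.22 in GSK libraries. Nes held 6.53%, 6.18% and 5.71% in DMSO replicates 1 to 3 and 2.85%, 2.67% and 2.54% in GSK replicates 1 to 3. The Nes shares did not overlap. Ina went from 2.42% ± 0.734 to 4.61% ± 0.621, Nefm from 1.99% ± 0.512 to 3.94% ± 0.280 and Nefl from 1.02% ± 0.374 to 3.31% ± 0.143. For each of these 5 genes the exact permutation test gave p = 0.1, the smallest possible. In DMSO libraries Nes was thus the most abundant of these genes after Vim, and in GSK libraries Ina, Nefm and Nefl all had higher mean shares than Nes. This order was seen with the longest transcript as length. Per kb of all annotated exons together, Nes held 3.87% in GSK libraries, and its order against Ina, Nefm and Nefl was not examined on that scale. The summed level of the 17 genes was 3977 ± 106 per kb in DMSO and 3862 ± 453 in GSK libraries (exact permutation p = 1).

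**Figure D4:**
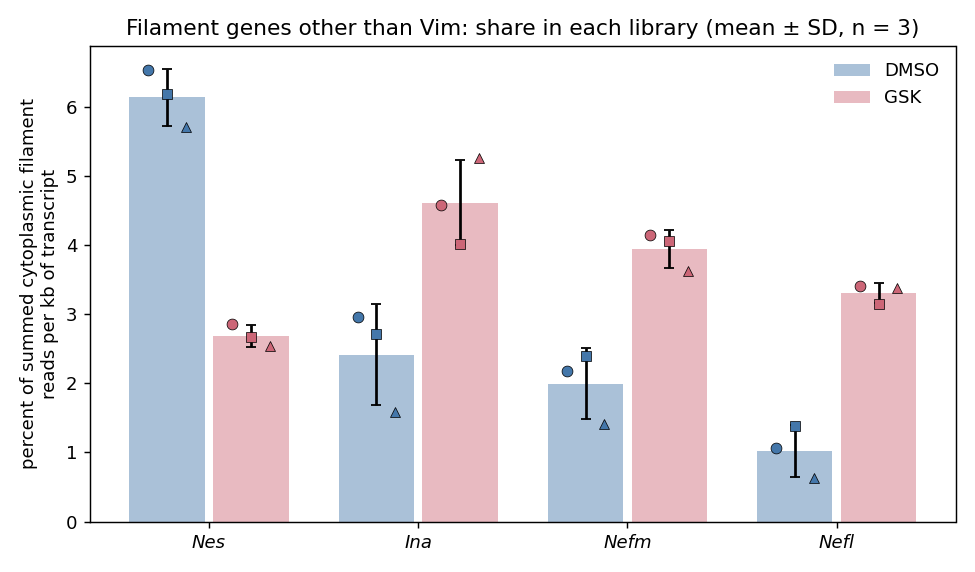
Share of Nes, Ina, Nefm and Nefl in the summed reads per kb of 17 cytoplasmic filament genes, in percent from 0, as points per library and bars for the mean ± SD. Nes goes from a mean of 6.14% to 2.69%, while Ina, Nefm and Nefl have higher shares in GSK libraries. Vim holds most of the remainder and is not drawn.

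Genes for linker proteins that tie filaments to other parts of the cell were listed as well. Of 6 tested, 2 were called lower, against 19.1% of all tested genes (median -0.28 against 0.01). Plec, which encodes plectin, had a log2 fold change of -0.40 (limma adjusted p = 0.0263) and Macf1 of -0.37 (0.0487). Each lost its call without any of several single libraries, with adjusted p up to 0.153 for Plec without DMSO replicate 3 and 0.207 for Macf1 without GSK replicate 3.

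Kinases known to phosphorylate vimentin or nestin, with their partners, gave 5 lower and 1 higher of 10, against 19.1% and 17.0% of all tested genes (median -0.28 against 0.01). The mitotic kinase genes fell. Aurkb had 1121, 1149 and 1137 normalised reads in the DMSO libraries and 307, 391 and 343 in the GSK libraries (log2 fold change -1.72, limma adjusted p = 4.14e-09). Plk1 had a log2 fold change of -1.70 (limma adjusted p = 6.87e-09) and Cdk1, which acts on both filament proteins in mitosis, of -1.47 (4.31e-08). Cdk5r1, the neuronal activator of the kinase CDK5, rose with a log2 fold change of 1.08 (limma adjusted p = 0.00168), while Rock1, Rock2 and Pak1, which act on vimentin outside mitosis, had values of 0.34, -0.04 and 0.06 without passing. Pak2, a relative of Pak1, had 844, 992 and 831 normalised reads in the DMSO libraries and 691, 639 and 525 in the GSK libraries and was called lower (log2 fold change -0.53, limma adjusted p = 0.00461). The genes called lower were thus not the mitotic kinases alone.

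Of the 8 SOX and POU factor genes known to act on the neural enhancer of Nes, 5 fell and 1 rose, against 19.1% and 17.0% of all tested genes (median -0.86 against 0.01). Sox1 had 86.0, 84.2 and 85.5 normalised reads in the DMSO libraries and 26.2, 34.0 and 23.3 in the GSK libraries. Its log2 fold change was -1.60 (limma adjusted p = 2.3e-05), beside -1.46 for Sox2 (5.13e-07). Pou3f3, a POU factor gene of the cortex, had 1344, 1425 and 1185 normalised reads in the DMSO libraries and 622, 669 and 675 in the GSK libraries (limma adjusted p = 3.19e-06). Sox11, a factor of young neurons, rose with a log2 fold change of 0.82 (limma adjusted p = 0.000419). Pou3f1 and Pou3f4 did not pass, with 0.27 and -0.08.

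Around CD133 itself, a list of 16 genes of prominins, the apical membrane and the cilium had 15 tested members, of which 9 fell, Prom1 included, and 2 rose, against 19.1% and 17.0% of all tested genes (median -0.42 against 0.01). The related gene Prom2 stayed below the filter, with 1.72 to 9.56 normalised reads in every library. Crb2, an apical polarity gene, had 780, 1034 and 982 normalised reads in the DMSO libraries and 182, 197 and 193 in the GSK libraries (log2 fold change -2.27, limma adjusted p = 2.58e-10). Cdh2, the cadherin gene of apical junctions, had a log2 fold change of -1.35 (limma adjusted p = 4.47e-07). The genes Msn and Ezr, whose proteins link the membrane to actin in protrusions, had -0.86 (5.81e-05) and -0.78 (8.52e-05). The 2 genes that rose were Kif3a, a motor subunit of ciliary transport, by 0.45 on the log2 scale (limma adjusted p = 0.0118), and Pard3, a polarity gene, by 0.40 (0.0192). Neither was called without DMSO replicate 3 (0.0849 for Kif3a, 0.0889 for Pard3), and Pard3 was also lost without GSK replicate 2 (0.120). Some of the falls were unstable too. Pard6b, Mpp5 and Tjp1 were not called without DMSO replicate 1 (limma adjusted p = 0.0698, 0.148 and 0.0720), which left 6 genes called lower. Each of them also lost its call without other single libraries. The cilium genes Arl13b and Ift88 had values of 0.29 and 0.28 without passing. Pard3, Pard6b, Mpp5 and Tjp1 were named after their values were seen.

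Other surface proteins used to sort neural progenitors were set beside Prom1. Of 11 genes, 10 were tested, 6 fell and 2 rose, against 19.1% and 17.0% of all tested genes (median -1.06 against 0.01). Slc1a3, a glutamate transporter of radial glia, had 583, 570 and 563 normalised reads in the DMSO libraries and 75.1, 66.2 and 45.6 in the GSK libraries (log2 fold change -3.21, limma adjusted p = 6.63e-11). Ptprz1, a receptor phosphatase, had a log2 fold change of -2.33 (limma adjusted p = 6.63e-11), Notch1 of -1.22 (3.89e-07) and Egfr of -1.29 (6.59e-07). L1cam, an adhesion gene of growing axons, was called lower as well (-0.90, 0.0181), although DMSO replicate 3 at 142 normalised reads stood below GSK replicate 1 at 152, and the call was lost without DMSO replicate 1 (0.0768), GSK replicate 2 (0.0747) or GSK replicate 3 (0.118). The 2 genes that rose, Cd24a (log2 fold change 0.81, limma adjusted p = 0.000682) and Ncam1 (0.87, 0.000106), encode surface proteins that are stronger on young neurons than on progenitors. L1cam, Cd24a and Ncam1 were named after their values were seen.

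**Figure D5:**
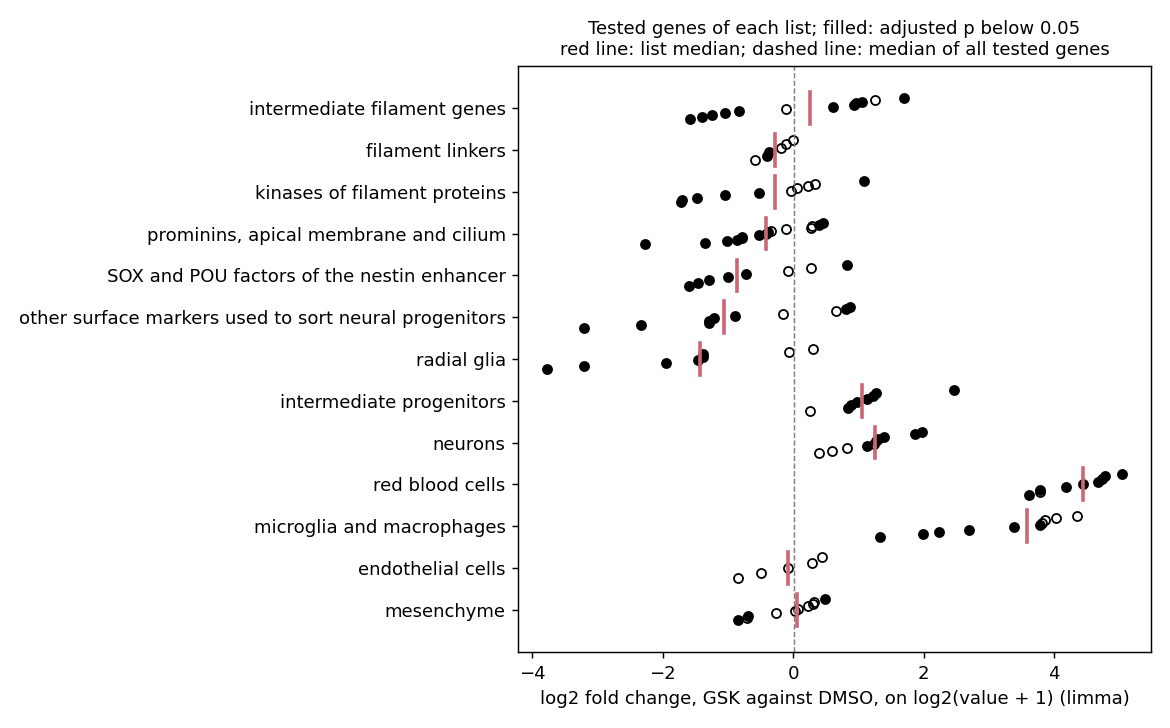
Log2 fold change of GSK against DMSO on the log2(value + 1) scale for each tested gene of the 13 lists, filled where the limma adjusted p was below 0.05, with a line at each list's median. The lists of radial glial markers, surface markers and SOX and POU factors have medians of -1.43, -1.06 and -0.86. Neuron and red blood cell markers have medians above 0. The medians of intermediate progenitor and macrophage markers are drawn but not read, since some of their genes reached the filter only through the GSK libraries.

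Vim is expressed by mesenchyme. Of 10 mesenchyme markers tested, the collagen genes Col1a1 and Col3a1 were called lower and the factor gene Prrx1 higher, against 19.1% and 17.0% of all tested genes (median 0.05 against 0.01), so the shares called were near those of all genes. These calls depended on the setting. Both collagen calls were lost with DESeq2 (adjusted p = 0.108 for Col1a1 and 0.0693 for Col3a1) and when totals were equalised leaving out globin genes and those overlapping ribosomal RNA (0.0841 and 0.0536). That of Col1a1 was also lost without DMSO replicate 3 (0.0579), and that of Prrx1 without DMSO replicate 2 (0.0731). Without GSK replicate 1, 4 mesenchyme markers were called lower. Col3a1 had 13966, 14610 and 17542 normalised reads in the DMSO libraries and 12794, 7008 and 6773 in the GSK libraries. GSK replicate 1 was thus the highest GSK library for Col3a1 and the lowest for Vim. The other markers were split. Col1a1, Col1a2, Pdgfra, Pdgfrb and Dcn were also highest in GSK replicate 1 among the GSK libraries. Lum, Foxc1 and Prrx1 were lowest there, as Vim was, and Twist1 lay between. The part of mesenchyme RNA in the level of Vim was not tested. Of the endothelial markers, 5 were tested. In the main setting none was called by limma (2 at an unadjusted p below 0.05), 1 was called lower by edgeR and none by DESeq2 (1 at an unadjusted p below 0.05). With equal library totals, a pseudocount of 10 or array weights, limma also called 1 lower. The macrophage markers, another source of vimentin, rose in 6 of 10 cases, against 17.0% of all tested genes (median 3.59 against 0.01). Aif1, C1qa and C1qc, with DMSO means of 6.78, 8.83 and 7.39 normalised reads, reached the filter only through the GSK libraries, so this count and median are not read further.

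The genes with the most similar pattern over the 6 libraries were found among 9067 well-expressed protein-coding genes by the root mean square difference of centred log2 values. For Prom1 the nearest were Mdn1, Nsd2, Jarid2, Ckap5 and Rpgrip1, at differences of 0.02 to 0.06, where the median over all candidates was 0.55. Mdn1, which encodes a ribosome assembly factor, had 979, 1006 and 914 normalised reads in the DMSO libraries and 558, 470 and 407 in the GSK libraries, with the same order of libraries as Prom1. For Nes they were Gart, Pola1, Meis2, Xylt1 and Tacc3, at 0.05 to 0.07 against a median of 0.63. Gart, an enzyme gene of purine synthesis, had 1125, 1191 and 997 and then 406, 475 and 480. For Vim they were Tars, Pnn, Smarcal1, Rpsa and Id2, at 0.03 against a median of 0.25, and each was lowest in GSK replicate 1 as Vim was. No gene was nearest to 2 of the 3 members. Likeness over 6 libraries in 2 groups is a description that the group difference dominates.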

How the data were processed

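The values used are normalised read counts per gene, a signal deposited by the authors in a single table of 118098 rows for 32285 genes, with each gene's value repeated on its transcript rows, of which 1 was kept. STAR, DESeq, GRCm38 and mm10 are named, per the submitters' processing notes, with no role or version. The read counter is not given in the sources used here. Dividing by the smallest value of a library gave whole numbers, to within 0.01, for 100% of its nonzero values, and these were taken as its reads. GENCODE vM21 (GRCm38) supplied coordinates and lengths for 32158 genes by identifier, and promoters from RefSeq on GRCm38.p6, which matched all 3 genes.

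Tests ran in limma 3.58.1 (R 4.3.3, trended and robust) on log2(value + 1) over 15073 genes whose mean reached 10. The model held group alone, and p-values were adjusted by Benjamini-Hochberg with a threshold of 0.05. Fold changes on this scale understate those of low genes. Single values were compared by two-sided exact permutation (scipy 1.17.1). edgeR 4.0.16 called 5536 genes and DESeq2 1.42.0 called 5129 on the recovered reads, against 5446 by limma. The limma step was tested on simulated data. No 2 libraries of a group agreed within sampling noise (chi-square per degree of freedom 4.46 to 14.1), so each was counted.

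The members and lists were chosen with earlier results of these data known. Named were the 3 members, up to 4 called genes per list by smallest p, the 5 nearest patterns of each member among protein-coding genes whose mean reached 100, and further genes on which a sentence turns, named after their values were seen (such as Ezr, Krt18 and the genes that did not pass).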

Additional observations from a re-analysis of the deposited data

How the results depend on the processing

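Prom1 and Nes were lower and past the threshold under all 16 alternatives run: 2 pseudocounts, 2 filters, 2 scalings, edgeR, DESeq2, a replicate block, array weights and 6 fits that each lack 1 library. The log2 fold change of Prom1 ran from -1.13 to -0.90 (adjusted p up to 0.00024) and that of Nes from -1.31 to -1.17 (adjusted p up to 1.83e-05). The extremes without 1 library were -1.13 and -0.90 for Prom1 and -1.31 and -1.18 for Nes. Vim passed under none of them, with adjusted p from 0.205 to 0.943. Its direction reversed to 0.011 with array weights, whose estimation stopped before convergence (adjusted p = 0.919), and to 0.010 without GSK replicate 1 (0.943), and its values without 1 library ran from -0.17 to 0.01. Of all tested genes 5446 were called, from 4076 to 6298 without 1 library and 8962 with array weights. Lower genes made up 52.9% of calls, but 61.4% with equal library totals, 47.5% (2602 lower, 2876 higher) when globin genes and those overlapping ribosomal RNA were left out of the totals and 48.1% with array weights, so which direction held more calls depended on the scaling. Of the filament list 10 genes were called, and 7 to 11 under the alternatives, 3 of which added Krt8. The Vim to Prom1 and Vim to Nes ratios were higher in GSK under all 10 alternatives each, by 0.75 to 1.14 and 1.08 to 1.21 on the log2 scale. Among these alternatives, the ratio per kb and the replicate block leave the mean log2 difference unchanged by construction. An exact permutation test of 3 against 3 libraries cannot go below 0.1. The Nes to Prom1 difference ran from -0.35 to -0.05. Nes made up 6.14% of cytoplasmic filament reads per kb in DMSO, and 8.94% with the union of exons as length (2.69% and 3.87% in GSK libraries). The replicate numbers are not stated to pair libraries, and same-numbered libraries correlated at 0.01, -0.02 and 0.05 in their deviations from the group means. With the replicate block 5642 genes were called, the members gave -1.01 for Prom1, -1.24 for Nes and -0.10 for Vim, and no call among them changed. The paired exact test of the ratios gave p = 0.5 for Nes to Prom1 and 0.25, the smallest possible, for the other ratios. With 3 libraries a group, the interval of Vim leaves room for a fall to 75.0% of its DMSO level.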
